A study of Saccharomyces cerevisiae with 25 samples.

Results

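The amino acid biosynthesis genes described here are 47 genes of Saccharomyces cerevisiae, chosen by name, of the 6650 named genes in the series. They are 6 genes of histidine synthesis, 6 of arginine, 7 of lysine, 10 of the branched-chain amino acids, 8 of the aromatic amino acids, 5 of the homoserine pathway, 4 of asparagine and serine, and GCN4, which encodes a transcription factor of many such genes. Choosing them used no measured value, although earlier results of these data were known when the members and lists were chosen. RNA was sequenced from 25 samples of a single strain, a BY4741 derivative with a PHO84 promoter driving YFP (pho84pr-YFP) and a DAmP allele of PHO85 (pho85 damp). A DAmP allele carries an insertion behind the gene that lowers its mRNA. BY4741 is a haploid laboratory strain in which HIS3, LEU2, MET17 and URA3 are deleted, so it depends on supplied histidine, leucine, methionine and uracil. The sample at 0 min came from high phosphate medium, and 24 samples were taken every 15 min up to 360 min after transfer to medium without phosphate. All 25 samples carry both modifications, and a strain with unaltered PHO85 is not analysed here.

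Yeast makes its amino acids through branched pathways, several of which run partly in the mitochondrion and begin with an enzyme that the end product inhibits. Starvation for an amino acid activates the kinase Gcn2, which slows translation in general but lets GCN4 mRNA be translated. The Gcn4 protein then binds sites with the core TGACTC, which reads GAGTCA on the other strand, upstream of many biosynthetic genes. Gcn4 protein is short-lived, and phosphorylation by Pho85 with the cyclin Pcl5 is one of the marks that lead to its degradation, while Pho85 with the cyclin Pho80 holds back the phosphate response. The level of GCN4 mRNA is therefore background to, and no measure of, the amount of Gcn4 protein.

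The core of the Gcn4 site was frequent before these genes. It lay in 32 of 47 members (68.1%), against 508 of 6020 protein-coding genes (8.44%), in the window from 400 to 101 bases before the start codon, on either strand. The stretches around it are shown for 3 genes whose RNA was higher late in the course (CPA1, HIS4 and LYS1) and 3 whose RNA was lower (LEU9, BAT1 and ASN2), because all 6 carry the same core. Each was read from the RefSeq R64 genome, is given 5′ to 3′ on the coding strand with 30 bases on each side of the outermost cores or up to the edge of the window, and has the core in capitals.
CPA1, chrXV:882574-882639, plus strand: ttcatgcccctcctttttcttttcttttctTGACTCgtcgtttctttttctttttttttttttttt
HIS4, chrIII:68497-68618, minus strand: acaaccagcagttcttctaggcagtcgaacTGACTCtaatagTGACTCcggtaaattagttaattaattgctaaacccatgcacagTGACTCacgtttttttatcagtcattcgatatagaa
LYS1, chrIX:420837-421015, minus strand: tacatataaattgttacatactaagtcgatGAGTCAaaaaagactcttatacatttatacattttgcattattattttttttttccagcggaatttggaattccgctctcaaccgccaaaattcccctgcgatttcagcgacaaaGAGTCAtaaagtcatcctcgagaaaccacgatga
LEU9, chrXV:522740-522805, plus strand: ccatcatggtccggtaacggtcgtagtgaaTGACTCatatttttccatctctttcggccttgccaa
BAT1, chrVIII:517331-517396, plus strand: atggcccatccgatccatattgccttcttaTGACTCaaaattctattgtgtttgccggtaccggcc
ASN2, chrVII:739717-739782, plus strand: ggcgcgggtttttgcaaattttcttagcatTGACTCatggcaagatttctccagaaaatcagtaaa

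The core stood 295 bases before the start codon of CPA1, at 255, 243 and 199 bases before that of HIS4, and at 249 and 134 bases before that of LYS1. It stood at 257 bases for LEU9, 171 for BAT1 and 197 for ASN2. Among all 47 members, it was found for 7 of 12 called higher, 8 of 11 called lower and 17 of 24 not called between the windows compared below. With each library centred on its median it was found for 5 of 5 called higher, 11 of 17 called lower and 16 of 25 not called. The median change was 0.13 on the log2 scale both in the 32 members with the core and in the 15 without it. The changes ran from -1.55 to 1.59 in members with the core and from -0.91 to 0.67 in those without it. Presence of these letters is a description of the sequence and does not show binding. The window is set from the start codon and can reach into the transcribed leader of a gene. Absence of the core from it does not show that a gene has none further upstream.

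Each time is 1 library, so neighbouring times were grouped into an early window of 15 to 120 min, a middle window of 135 to 240 min and a late window of 255 to 360 min. A p-value therefore measures a difference against the spread among libraries of a window, which includes any change within it. The deposited values are log2 RPM (reads per 1000000 listed reads), and a gene with fewer than 10 reads in a library is not listed there. The 5 shallowest libraries, with 767 to 81208 listed reads, were left out of the main comparisons, because a shallow library lists only the genes that are high in it. The 20 libraries used held 4954493 listed reads at 0 min and 169768 to 1981423 in the 5 early, 7 middle and 7 late libraries. The lowest value that could be listed was 2.02 RPM at 0 min and up to 58.9 RPM (at 360 min). PHO84, the phosphate transporter gene, was at 69.6 RPM at 0 min, 384 to 745 RPM early and 931 to 1994 RPM late. PHO85 reached the listing limit in 4 of 20 libraries (5.65 RPM at 0 min), and HIS3, LEU2, MET17 and URA3 in none.

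The share of listed reads from 138 ribosomal protein genes was 33.7% at 0 min, 29.1 to 32.9% early and 4.08 to 7.52% late, and RPM of the remaining genes moves with it. The median of all 4591 genes tested was 0.40 higher (log2 RPM) late than early. Results are therefore given in RPM and again with each library centred on its median, where that shift is 0.02, or scaled to reads outside ribosomal protein genes, where it is -0.06. The median used for centring was taken over the genes with a value in every library used, and was set level with that at 0 min. RPM is a share of RNA, so less of an RNA per cell and more of the other RNAs cannot be told apart.

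All 47 genes were listed at 0 min and passed the limits on level, 38 of them with a value in all 20 libraries. Together they took 1.41% of listed reads at 0 min, 1.26 to 1.45% early (median 1.38%), 1.30 to 1.42% in the middle window (median 1.37%) and 1.33 to 1.56% late (median 1.46%). Their summed share of all listed reads thus differed little between windows, while single genes moved apart in both directions. Ribosomal protein genes took 29.1 to 32.9% of those reads early and 4.08 to 7.52% late. A similar share of all reads is therefore a smaller share of the reads outside ribosomal protein genes late than early. Between the early and late windows 12 members rose in RPM, 11 fell and 24 did not pass the test (limma, adjusted p under 0.05). Of all genes tested, 35.7% were called higher and 7.19% lower. With libraries centred on their medians 5 members rose and 17 fell, against 15.9% and 14.7% of all genes. Scaled to reads outside ribosomal protein genes, 3 rose and 19 fell, against 13.4% and 17.4%. HIS4, CPA1 and LYS1 were called higher on all 3 scales, and HIS5 and ARG4 in RPM and centred. The same 11 genes were called lower on all 3 scales: HIS6, LEU9, BAT1, ILV3, ILV5, ARO2, ARO4, TRP2, THR1, ASN1 and ASN2. The median change of the members was 0.13 in RPM and -0.27 centred, and 15 of 47 were above the median of all genes. Early and late libraries did not overlap in 14 members, against 27.1% of all genes.

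**Figure D1:**
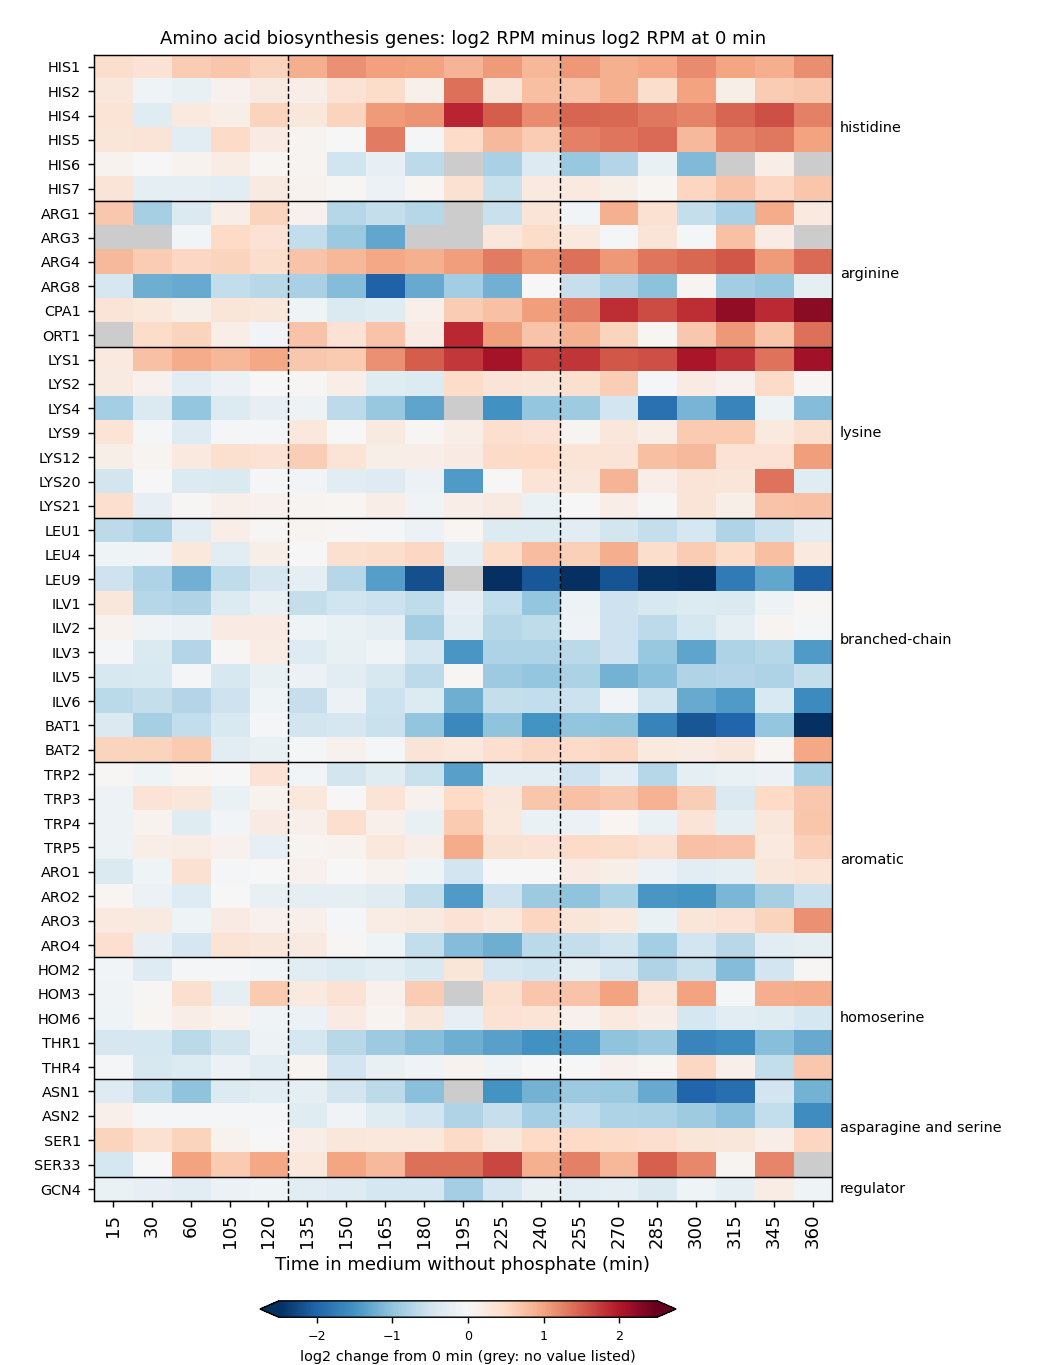
Each row is a gene and each column a library without phosphate, in order of time (min), and the colour is log2 RPM minus log2 RPM at 0 min, with grey where no value was listed. Colours end at the limits of the bar, and dashed lines part the early, middle and late windows. HIS4, CPA1 and LYS1 darken towards red in the later libraries and LEU9, BAT1 and THR1 towards blue.

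The early window did not differ detectably from 0 min in any member, with 0 of 47 called, against 0.218% of all genes called higher and 0% lower, and 2 members at an unadjusted p under 0.05. The 0 min group is 1 library, assumed to vary like the other groups. Against 0 min the late window was higher for HIS1, HIS4, HIS5, ARG4, CPA1 and LYS1 and lower for LEU9, BAT1, ARO2, THR1, ASN1 and ASN2 (19.1% and 5.45% of all genes). Centred on medians, ARG4, CPA1 and LYS1 were higher and 12 members lower (8.87% and 9.67% of all genes), and scaled to reads outside ribosomal protein genes 3 were higher and 11 lower (9.04% and 8.34%). In RPM, from the early to the middle window, HIS1 and HIS4 rose and THR1 fell (8.69% and 2.27% of all genes), and from the middle to the late window HIS5 and CPA1 rose and 0 members fell (6.69% and 2.88%). A spline of time over the 19 libraries without phosphate called 27 of 47 members, against 50.4% of all genes, and 21 centred on medians, against 35.7%.

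Histidine genes mostly rose in RPM. On that scale 5 of 6 were higher late and 1 was lower, against 35.7% and 7.19% of all genes. The median change was 0.53 (log2), against 0.40 over all genes. Centred on medians 2 were higher and 1 lower (15.9% and 14.7% of all genes). Scaled to reads outside ribosomal protein genes 1 was higher and 1 lower (13.4% and 17.4% of all genes). HIS4 encodes a protein with several activities that catalyses early and final steps of the pathway, and lies at chrIII:65934-68333 on the minus strand. Its RNA was at 190 RPM at 0 min, at 241, 153, 224, 209 and 279 RPM at 15, 30, 60, 105 and 120 min, and between 446 and 583 RPM (median 514) in the 7 late libraries. Every late library was above every early one, and each library from 165 min on was above all early ones, in RPM and centred. The change was 1.20 (log2 RPM, SE 0.21, n = 5 and 7, adjusted p = 7.2e-05, limma), a 2.30-fold rise, and 0.81 when centred (adjusted p = 0.0013). HIS5, the histidinol-phosphate aminotransferase gene, rose by 0.99 (SE 0.22, adjusted p = 9.0e-04), from an early median of 47.02 RPM to a late median of 91.4 RPM, and by 0.60 centred (adjusted p = 0.041).

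HIS1, which encodes the first enzyme of the pathway, had the highest level per kilobase of the 6 genes (883 RPM per kb at 0 min), with 789 RPM at 0 min, 1018 to 1276 RPM early and 1469 to 1780 RPM late. Its rise of 0.48 in RPM (SE 0.14, adjusted p = 0.0081) was 0.09 when centred (adjusted p = 0.67). HIS2, the histidinol-phosphatase gene, and HIS7, the imidazole glycerol phosphate synthase gene, rose by 0.57 and 0.45 in RPM (adjusted p = 0.030 and 0.040) and had centred changes of 0.18 and 0.06, neither called. HIS6, which encodes an isomerase of the pathway, went the other way, from 74.6 to 84.3 RPM early to 34.8 to 83.6 RPM in the 5 late libraries that list it. Its change was -0.64 (SE 0.24, adjusted p = 0.037) and -1.01 centred (adjusted p = 0.0038). The RPM call of HIS6 was lost without any 1 of the libraries at 15, 30, 60, 105, 120, 255, 270 or 300 min, with adjusted p up to 0.101 and changes from -0.65 to -0.50. That of HIS2 was lost without 30, 60, 105, 270 or 300 min (adjusted p up to 0.073), and that of HIS7 without 30, 60, 105, 300, 315, 345 or 360 min (adjusted p up to 0.110).

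Arginine genes were led by CPA1, with 2 of 6 higher and 0 lower in RPM, against 35.7% and 7.19% of all genes. Their median change of 0.35 was below the 0.40 of all genes. The same count was called when centred (15.9% and 14.7% of all genes), with a median of -0.05. CPA1 (chrXV:882899-884134, plus strand) encodes the small subunit of the arginine-specific carbamoyl phosphate synthetase. Its RNA stood at 293 RPM at 0 min and at 364, 351, 324, 363 and 355 RPM in the 5 early libraries. In the middle window it went from a lowest value of 227 RPM, at 150 min, to 603 RPM at 240 min, and the late libraries ran from 710 to 1402 RPM with a median of 1057 RPM. The early libraries thus lay within a narrow range and all late libraries lay far above it. CPA1 had the largest rise of the 47 genes, 1.59 (SE 0.22, adjusted p = 7.3e-06) in RPM and 1.19 (adjusted p = 5.9e-05) when centred, and it also rose from the middle to the late window, by 1.60 (adjusted p = 6.4e-05). Per kilobase of coding sequence it went from rank 14 of the members at 0 min (237 RPM per kb) to rank 3 late (856 RPM per kb).

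ARG4, which encodes argininosuccinate lyase, the final enzyme of arginine synthesis, was at 155 RPM at 0 min, at 273, 241, 223, 227 and 211 RPM early and between 326 and 457 RPM late (median 404 RPM). No late library overlapped an early one. The rise was 0.73 in RPM (SE 0.14, adjusted p = 2.1e-04) and 0.34 centred (adjusted p = 0.041), and 0.27 when scaled to reads outside ribosomal protein genes (adjusted p = 0.12, not called). ARG1 (argininosuccinate synthetase), ARG3 (ornithine carbamoyltransferase), ARG8 (acetylornithine aminotransferase) and ORT1 (the mitochondrial ornithine transporter) had changes from -0.02 to 0.48 in RPM, none of which passed. ARG3 was the lowest of all members per kilobase at 0 min, at 21.8 RPM per kb, and was listed in 15 of 20 libraries.

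Lysine genes were higher in 3 of 7 cases and lower in 0 in RPM, against 35.7% and 7.19% of all genes. Their median of 0.33 was below the 0.40 of all genes, and 5 of 7 lay below that value. Centred, LYS1 was higher and LYS4 lower (15.9% and 14.7% of all genes), and the median was -0.06. LYS1 (chrIX:419615-420736, minus strand) encodes saccharopine dehydrogenase, which releases lysine in the final step. It was at 42.4 RPM at 0 min, at 49.96, 70.7, 80.6, 75.2 and 83.3 RPM early, and between 109 and 183 RPM late with a median of 146 RPM. In RPM all libraries from 165 min on were above the early range, but centred this held from 360 min only. The rise from early to late was 1.01 (SE 0.23, adjusted p = 8.9e-04) and 0.61 centred (adjusted p = 0.022), and that from 0 min to late was 1.75 (SE 0.41, adjusted p = 0.0043).

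LYS9, the gene of the enzyme just before Lys1, rose by 0.37 in RPM (SE 0.15, adjusted p = 0.049) but had a change of -0.02 centred and -0.09 scaled to reads outside ribosomal protein genes. Its RPM call was lost without any 1 of 13 libraries (30, 60, 105, 120, 135, 150, 165, 180, 240, 270, 300, 315 or 360 min), with changes from 0.30 to 0.38 and adjusted p up to 0.140. LYS4, the homoaconitase gene, had a change of -0.49 in RPM (adjusted p = 0.14) and fell by 0.89 centred (adjusted p = 0.029). LYS2 (aminoadipate reductase) and LYS12 (homoisocitrate dehydrogenase) had changes of 0.29 and 0.33 in RPM, and neither passed on any of the 3 scales. LYS20 and LYS21 are described with the isozyme pairs.

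Branched-chain genes were more often lower than higher. In RPM 4 of 10 fell and 1 rose (7.19% and 35.7% of all genes), with a median of -0.31. Centred, 7 fell and 0 rose (14.7% and 15.9% of all genes), with a median of -0.70. ILV2 encodes the catalytic and ILV6 the regulatory subunit of acetolactate synthase, and ILV5 and ILV3 the reductoisomerase and the dehydratase that follow. ILV5 was at 1604 RPM at 0 min, at 1214, 1236, 1578, 1215 and 1403 RPM early and 709 to 1054 RPM late (median 941 RPM), without overlap. It fell by 0.56 (SE 0.18, adjusted p = 0.014), and by 0.95 centred (adjusted p = 2.6e-04). ILV3 fell by 0.72 (SE 0.23, adjusted p = 0.012) and by 1.12 centred (adjusted p = 0.0014).

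ILV2, ILV6 and LEU1, the isopropylmalate isomerase gene, had changes of -0.32, -0.29 and -0.17 in RPM that did not pass, and fell by 0.72, 0.69 and 0.57 centred (adjusted p = 0.0040, 0.045 and 0.018). ILV1, which encodes threonine deaminase at the entry to isoleucine synthesis, passed on neither scale (0.08 in RPM and -0.32 centred). Per kilobase, ILV5 ranked 2 among the members at 0 min (1350 RPM per kb) and ranked 4 late (792 RPM per kb).

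**Figure D2:**
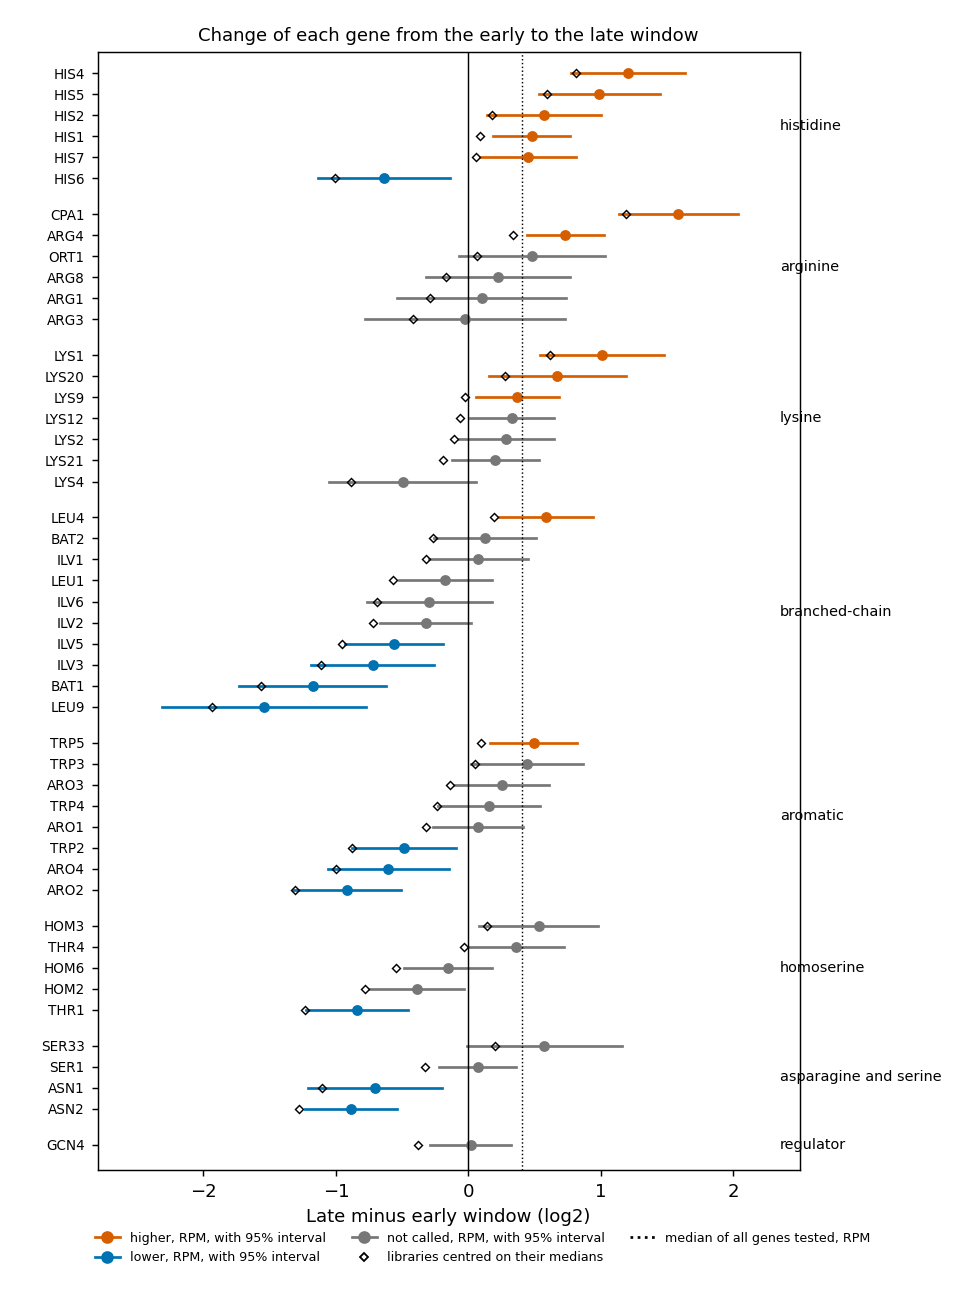
Change of each member from the early (n = 5) to the late (n = 7) window on the log2 scale, grouped by pathway, as a point with its 95% interval from limma in RPM, and as an open diamond with libraries centred on their medians. The dotted line is the median of all genes tested, 0.40 in RPM, and 15 of 47 points lie to its right. Histidine genes apart from HIS6 lie above that line, while 9 of 10 branched-chain genes lie below it.

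Aromatic genes were higher in 1 case and lower in 3 of 8 in RPM (35.7% and 7.19% of all genes), with a median of 0.11. Centred, 0 were higher and 3 lower (15.9% and 14.7% of all genes), and the median was -0.28. ARO2 (chrVII:226399-227529, plus strand) encodes chorismate synthase, which makes the last common precursor of tryptophan, tyrosine and phenylalanine. It was at 319 RPM at 0 min, at 329, 286, 254, 315 and 282 RPM early and between 113 and 218 RPM late, with a median of 160 RPM. All libraries from 180 min on were below the early range. It fell by 0.91 (SE 0.20, adjusted p = 6.5e-04) and by 1.31 centred (adjusted p = 8.4e-05).

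TRP5, the tryptophan synthase gene, rose by 0.49 in RPM (SE 0.16, adjusted p = 0.015), from 333 to 435 RPM early to 453 to 638 RPM late, and its centred change of 0.10 did not pass (adjusted p = 0.63). TRP2, which encodes anthranilate synthase, fell by 0.48 (SE 0.19, adjusted p = 0.042) and by 0.88 centred (adjusted p = 0.0024). The RPM call of TRP2 was lost without 15, 60, 105, 120, 255, 285 or 360 min (adjusted p up to 0.120). TRP3, TRP4 and ARO1, the gene of the protein with several activities that links the DAHP synthases to Aro2, had changes of 0.44, 0.16 and 0.07 in RPM and passed on no scale.

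The homoserine pathway leads from aspartate to threonine and gives homoserine to methionine synthesis. Of its 5 genes 0 were higher and 1 was lower in RPM (median -0.16), against 35.7% and 7.19% of all genes. Centred, 0 were higher and 3 lower (median -0.55), against 15.9% and 14.7% of all genes. THR1 (chrVIII:159438-160511, plus strand) encodes homoserine kinase. It was at 266 RPM at 0 min, at 200, 196, 167, 195 and 243 RPM early and 84.5 to 139 RPM late (median 112 RPM), with every library from 150 min on below all early ones. It fell by 0.84 (SE 0.19, adjusted p = 7.9e-04), by 1.24 centred (adjusted p = 1.1e-04), and already from the early to the middle window, where it was the only member called lower in RPM.

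HOM2 (aspartate semialdehyde dehydrogenase) and HOM6 (homoserine dehydrogenase) had changes of -0.39 and -0.16 in RPM that did not pass, and fell by 0.78 and 0.55 centred (adjusted p = 7.7e-04 and 0.0095). HOM3, the aspartate kinase gene at the head of the pathway, and THR4, the threonine synthase gene, had changes of 0.53 (adjusted p = 0.051) and 0.36 (adjusted p = 0.10) in RPM. Both were near 0 when centred, at 0.14 and -0.04, and neither passed.

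Of the asparagine and serine genes, ASN1 and ASN2 fell on all 3 scales. SER1, the phosphoserine aminotransferase gene, had a change of 0.07 and SER33, a phosphoglycerate dehydrogenase gene, of 0.57 in RPM, and neither passed. Scaled to reads outside ribosomal protein genes, SER1 was lower (-0.40, adjusted p = 0.027, limma). SER3, also a phosphoglycerate dehydrogenase gene, is counted with the other biosynthetic steps below and was called higher in RPM. Its change was 1.36 to 1.71 with single libraries left out in turn, and each fit kept the call (limma, adjusted p up to 0.0012). SER3 overlaps the annotated gene SRG1, and the part of SRG1 in its reads was not tested. ASN2 (chrVII:739944-741662, plus strand) encodes an asparagine synthetase and was at 557 RPM at 0 min, at 608, 539, 542, 540 and 538 RPM early and 188 to 366 RPM late, with a median of 323 RPM. It was the earliest of the called genes to leave the early range for good downward, at 135 min, both in RPM and centred, a count made after the values were seen. Such a time depends on how wide the early range of a gene is. At 150 min ASN2 was at 522 RPM, just below its lowest early value of 538 RPM. It fell by 0.89 (SE 0.17, adjusted p = 1.7e-04) and by 1.28 centred (adjusted p = 3.6e-05). ASN1, the other asparagine synthetase gene, fell by 0.71 (SE 0.25, adjusted p = 0.023) from 307 RPM at 0 min and an early median of 241 RPM to a late median of 136 RPM. Its RPM call was lost without 15, 105, 120, 300 or 315 min (adjusted p up to 0.060).

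GCN4 (chrV:138918-139763, minus strand) did not pass the test between any windows in RPM. It was at 1188 RPM at 0 min, at 1058, 1035, 992, 1071 and 1102 RPM early, at 663 to 1041 RPM in the middle window (median 883 RPM) and at 930 to 1358 RPM late (median 1010 RPM). Early and late libraries overlapped. The late minus early change was 0.02 (log2 RPM, SE 0.15, adjusted p = 0.93, 95% interval -0.29 to 0.32). It was -0.38 centred (adjusted p = 0.059) and -0.45 scaled to reads outside ribosomal protein genes (adjusted p = 0.025), so the direction and the call depend on the scale. Per kilobase GCN4 ranked first among the members at 0 min (1404 RPM per kb) and second late (1194 RPM per kb), after HIS1 (1752 RPM per kb). Its window, from 400 to 101 bases before the start codon, held no TGACTC core, and bases outside that window were not searched.

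**Figure D3:**
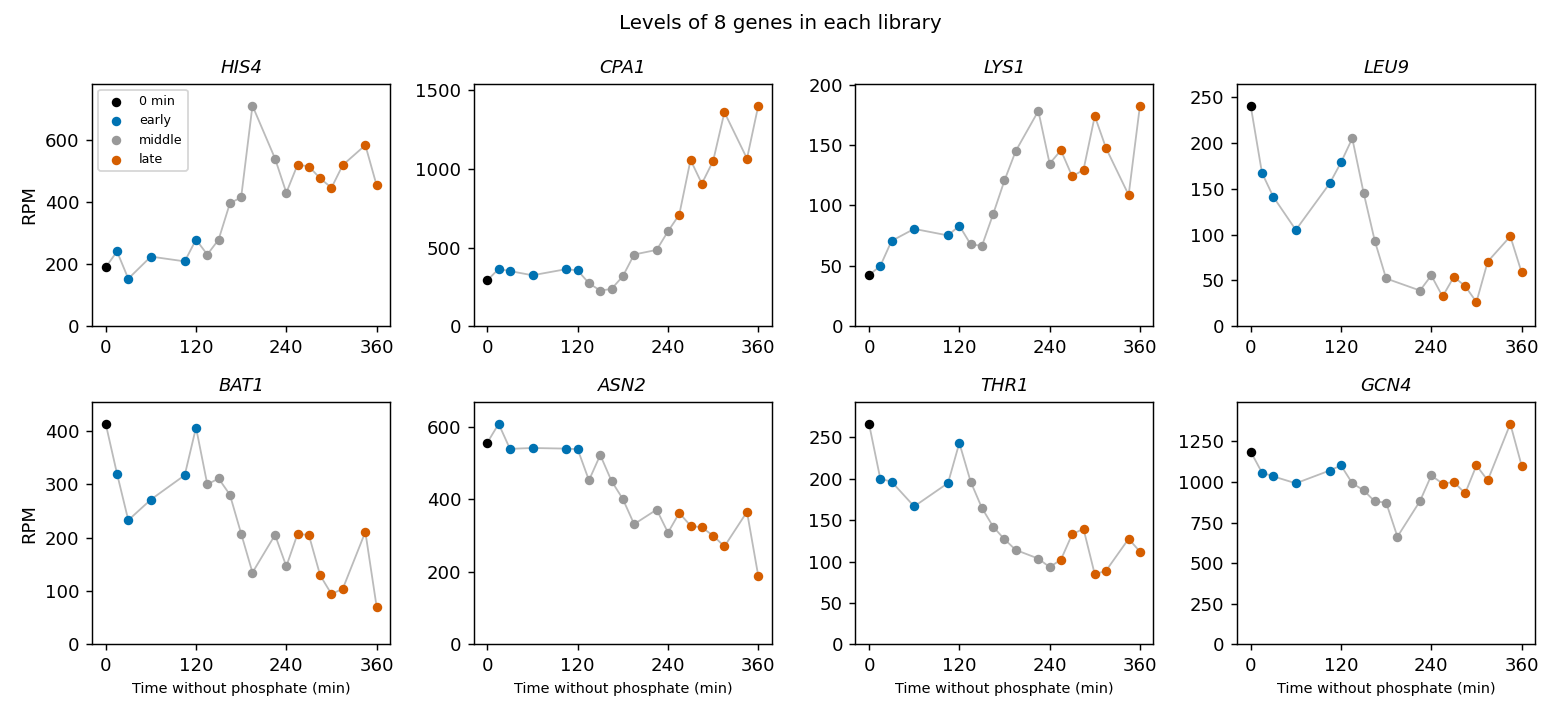
RPM of 8 genes in each of the 20 libraries against time without phosphate (min), with points coloured by window and the vertical axis from 0. HIS4, CPA1 and LYS1 end above their early libraries, LEU9, BAT1, ASN2 and THR1 below them, and the late libraries of GCN4, 930 to 1358 RPM, overlap the early ones in RPM.

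For 5 reactions both isozyme genes are members, and the log2 ratio within a library does not depend on how libraries are scaled. The ratios were compared between 5 early and 7 late libraries by two-sided exact permutation tests, adjusted over the 5 pairs by Benjamini-Hochberg, for which the smallest raw p is 0.0025. LEU4 and LEU9 encode isopropylmalate synthases, which start leucine synthesis. LEU9 (chrXV:523027-524841, plus strand) was at 241 RPM at 0 min, at 167, 141, 105, 156 and 179 RPM early and 26.5 to 98.2 RPM late, with a median of 54.0 RPM. The 360 min value of 58.9 RPM was at the listing limit of that library, and LEU9 was not listed at 195 min. LEU9 fell by 1.55 in RPM (SE 0.37, adjusted p = 0.0023, limma), the largest fall of the 47 genes, and by 1.94 centred.

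LEU4, in contrast, was at 585 RPM at 0 min, at 544, 553, 703, 479 and 648 RPM early and 689 to 1095 RPM late, with a median of 883 RPM. It rose by 0.59 in RPM (SE 0.17, adjusted p = 0.0087), and its centred change of 0.19 did not pass. The log2 ratio of LEU9 to LEU4 went from -1.98 ± 0.45 early (SD, n = 5) to -4.11 ± 0.68 late (SD, n = 7), a difference of -2.13 or 4.38-fold (exact permutation p = 0.0025, adjusted p = 0.0063). All early ratios were above all late ones.

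BAT1 and BAT2 encode the mitochondrial and the cytosolic branched-chain aminotransferase. BAT1 (chrVIII:517532-518713, plus strand) was at 414 RPM at 0 min, at 320, 233, 272, 317 and 407 RPM early and 70.7 to 211 RPM late, with a median of 129 RPM. It fell by 1.18 (SE 0.27, adjusted p = 0.0012), and by 1.57 centred. BAT2 was at 199 RPM at 0 min, at 294, 294, 312, 167 and 174 RPM early and 205 to 389 RPM late (median 243 RPM), a change of 0.13 in RPM that did not pass (95% interval -0.26 to 0.51). The log2 ratio of BAT2 to BAT1 rose from -0.35 ± 0.69 early (SD, n = 5) to 0.95 ± 0.81 late (SD, n = 7), by 1.30 (exact permutation p = 0.013, adjusted p = 0.021). Early and late ratios overlapped. Without the library at 15, 105 or 120 min the adjusted exact permutation p was 0.051, with differences of 1.36, 1.16 and 1.08.

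ARO3 and ARO4 encode DAHP synthases, the entry to the aromatic pathway, of which Aro3 is inhibited by phenylalanine and Aro4 by tyrosine. ARO4 was at 614 RPM at 0 min, at 826, 532, 461, 773 and 752 RPM early and 339 to 524 RPM late (median 437 RPM). It fell by 0.60 in RPM (SE 0.22, adjusted p = 0.031) and by 1.00 centred, and the RPM call was lost without 15, 105, 120, 285 or 315 min (adjusted p up to 0.083). ARO3 stood at 177 RPM at 0 min and between 165 and 209 RPM early and 157 and 389 RPM late, a change of 0.25 that did not pass. The log2 ratio of ARO4 to ARO3 went from 1.75 ± 0.30 (SD, n = 5) to 0.89 ± 0.24 (SD, n = 7), a difference of -0.86 or 1.81-fold without overlap (exact permutation p = 0.0025, adjusted p = 0.0063).

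ASN1 and ASN2 fell side by side. The log2 ratio of ASN2 to ASN1 was 1.37 ± 0.29 early (SD, n = 5) and 1.19 ± 0.52 late (SD, n = 7), with a difference of -0.18 that did not pass (exact permutation p = 0.49). LYS20 and LYS21 encode homocitrate synthases, the first enzyme of lysine synthesis. LYS20 was at 166 RPM at 0 min, at 120, 164, 132, 129 and 161 RPM early and 136 to 426 RPM late, and rose by 0.67 in RPM (SE 0.25, adjusted p = 0.033) but not detectably when centred (0.28). That RPM call was lost without 15, 60, 105, 270 or 345 min (adjusted p up to 0.077). LYS21 was at 189 RPM at 0 min, at 164 to 253 RPM early and at 188 to 312 RPM late, a change of 0.20 in RPM that did not pass. The log2 ratio of LYS21 to LYS20 differed by -0.47 (exact permutation p = 0.15, adjusted p = 0.19), and by -0.66 without the library at 360 min (adjusted exact permutation p = 0.027).

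The coding sequences of LYS20 and LYS21 are 91.6% identical, with a shared run of 278 bases, and both genes had whole read numbers in 3 of 20 libraries. Their values are therefore uncertain, because reads may have been split between them. The other isozyme pairs had whole read numbers wherever listed. Their identities were 72.2% for BAT1 and BAT2 (longest shared run 17 bases), 79.4% for LEU4 and LEU9 (41 bases), 66.6% for ARO3 and ARO4 (17 bases) and 81.2% for ASN1 and ASN2 (83 bases). Outside these pairs, ARG8 also had read numbers that were not whole, such as 610.8 at 0 min and 77.8 at 300 min. TRP3 had such numbers at 0, 135 and 300 min (255.3, 93.2 and 47.5), and SER33 at 120 min (114.9). The values of ARG8 are uncertain in the same way, as are those of TRP3 and SER33 in the libraries named.

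**Figure D4:**
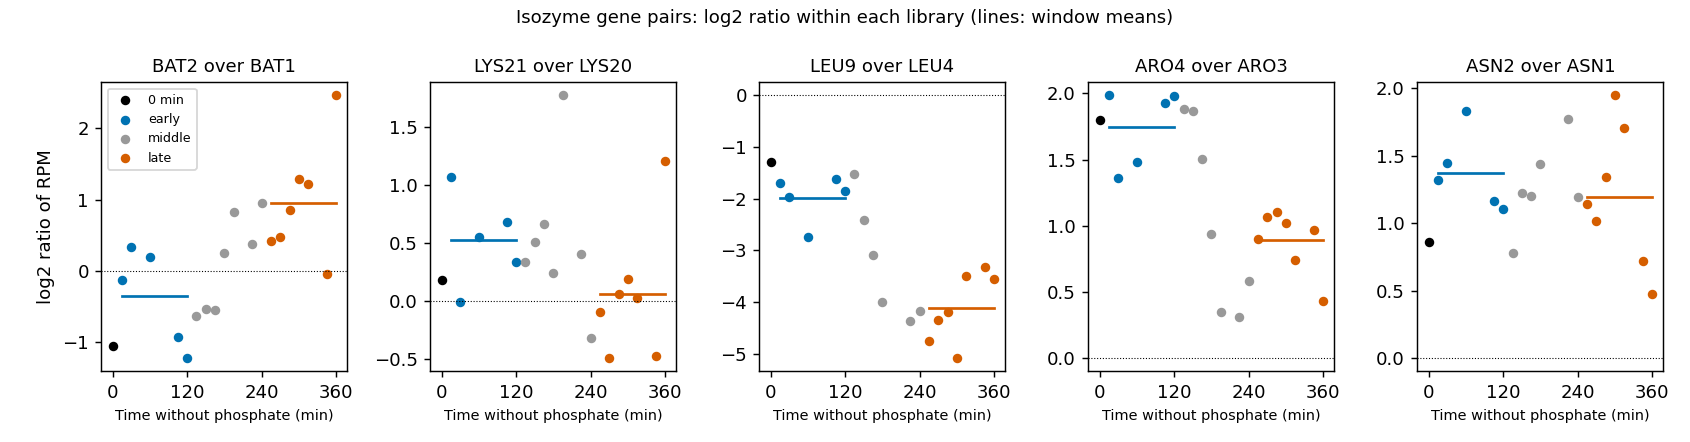
Log2 ratio of RPM of 2 isozyme genes in each library that lists both, against time without phosphate (min), with horizontal lines at the means of the early and late windows. The early and late ratios are fully apart for LEU9 over LEU4 and ARO4 over ARO3, overlap for BAT2 over BAT1 despite a mean difference of 1.30, and lie together for ASN2 over ASN1.

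Genes around these pathways were taken from lists drawn up from general knowledge. The shares of all genes to set beside each list were 35.7% higher and 7.19% lower in RPM, and 15.9% and 14.7% centred. Of 24 tested genes of other biosynthetic steps, 8 were higher and 4 lower late in RPM (4 and 6 centred), with a median of 0.35. GDH3, a glutamate dehydrogenase gene, went from 15.3 RPM at 0 min and an early median of 17.3 RPM to a late median of 53.2 RPM, a rise of 1.60 (SE 0.31, adjusted p = 3.1e-04) and of 1.20 centred. CYS3, the cystathionine gamma-lyase gene, fell by 1.32 (SE 0.27, adjusted p = 4.4e-04). Among 13 tested genes that control Gcn4 or its translation, 1 was higher and 3 lower in RPM, and 0 and 6 centred. The higher gene was GCN2, the kinase that senses uncharged tRNA, with 0.78 (SE 0.24, adjusted p = 0.011) in RPM and 0.39 centred, which did not pass. SUI3, a subunit gene of the initiation factor that Gcn2 acts on, fell by 0.58 (SE 0.17, adjusted p = 0.0069). PCL5, the Pho85 cyclin gene for Gcn4, was at 170 RPM at 0 min, at a median of 202 RPM early and 197 RPM late, and did not pass on any scale.

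For the lists that follow, the shares of all genes were again 35.7% higher and 7.19% lower in RPM, and 15.9% and 14.7% centred. Of 8 tested transcription factor genes linked to amino acid, nitrogen or related pathways, 5 were higher and 0 lower both in RPM and centred. These were ARO80, CBF1, GAT1, LYS14 and PHO2, named together after their values were seen, and as background GAT1, CBF1 and PHO2 each act on more than a single pathway. Among them were GAT1, a GATA factor of nitrogen control, at 1.63 (SE 0.22, adjusted p = 7.9e-06), and LYS14, the activator of lysine genes, at 1.02 (SE 0.20, adjusted p = 2.8e-04). Amino acid breakdown genes rose in 9 of 11 tested cases in RPM and 8 centred. PUT1, the proline oxidase gene, went from 7.87 RPM at 0 min and a median of 12.6 RPM in the 3 early libraries that list it to a late median of 81.5 RPM, a rise of 2.40 (SE 0.41, adjusted p = 7.7e-05). CAR1, the arginase gene, fell by 0.94 (SE 0.20, adjusted p = 6.9e-04), and CAR2, the ornithine transaminase gene, had a change of 0.55 that did not pass (adjusted p = 0.073). Of 21 cytosolic aminoacyl-tRNA synthetase genes 0 rose and 14 fell in RPM, and 20 fell centred, from YHR020W, a prolyl-tRNA synthetase gene, at -1.41 (SE 0.27, adjusted p = 1.7e-04) to SES1, for serine, at -0.47 (SE 0.18, adjusted p = 0.038). The call of SES1 in RPM was lost without 30, 60, 105, 255, 270 or 300 min (adjusted p up to 0.099).

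**Figure D5:**
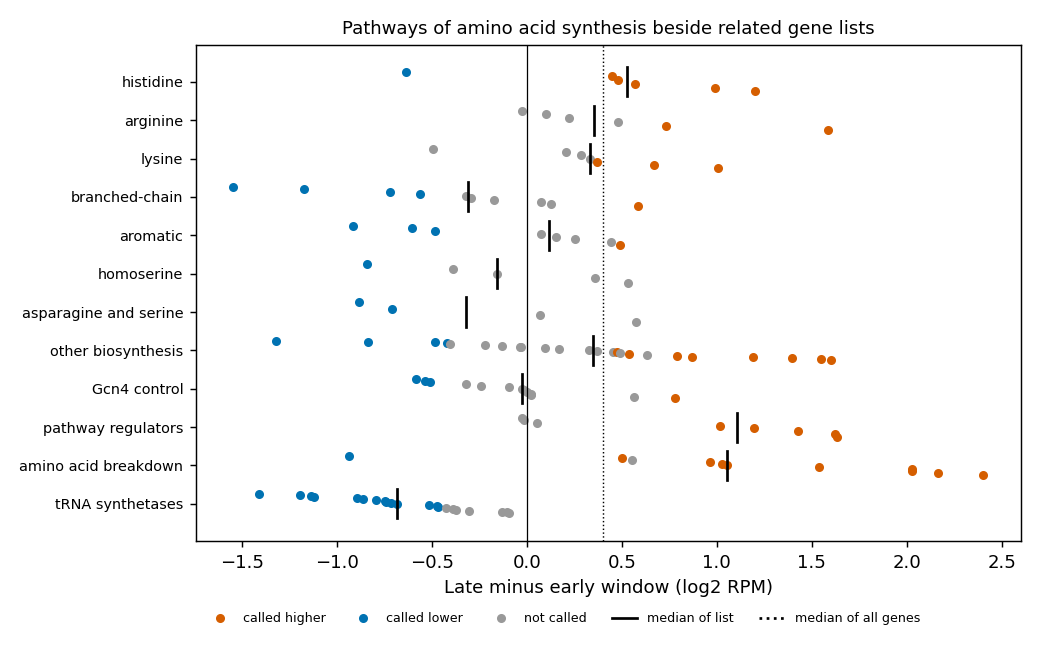
Change from the early to the late window (log2 RPM) of each tested gene in the 7 pathways and the 5 related lists, with a bar at each list's median and a dotted line at the median of all genes, 0.40. Histidine genes, pathway regulators and breakdown genes have medians above that line, and the tRNA synthetase genes, with a median of -0.68, lie wholly below it.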

How the data were processed

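RNA was sequenced from 25 samples of 1 strain; per the labels' protocols, cells were lysed with lyticase in plates, RNA was extracted with a NucleoSpin 96 kit and cDNA was run on an Illumina HiSeq instrument. Bowtie and R64 are named in the submitters' processing notes, with the counting tool, its strand setting and all versions not given in the sources used here. The deposited values are log2 RPM: genes with fewer than 10 reads are unlisted, each column sums to 1000000 on the linear scale, and with the lowest value set to 10 reads, 93.4 to 95.3% of values in the 20 libraries used were whole reads within 0.01. Although the labels mention scaling to the sample at 0 min, every column, that of 0 min included, holds levels. Of 6701 rows, 51 have no name and 981 named ones no value; 0 columns belong to other samples.

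Libraries with under 100000 listed reads were left out. Genes with a mean of at least 10 RPM, listed at 0 min and in at least 3 early, 4 middle and 4 late libraries were tested with limma 3.58.1 (R 4.3.3; trend and robust, unlisted values left out) and Benjamini-Hochberg adjustment over all 4591 genes at 0.05; a spline with 4 degrees of freedom used the libraries without phosphate. No count test was run, since the deposited unit is log2. The exact permutation tests used scipy 1.17.1. The script was tested on simulated data, with log2 changes from early to late added to 50 genes at each size. It called 96% of them at -2, 58% at -1, 10% at -0.5 and 16% at 0.5. A gene that did not pass may therefore still have changed. In the data more genes were called, so these rates need not hold there. The labels do not say whether samples came from 1 culture, so the tests weigh differences against the spread among libraries, which may be technical.

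Members and lists were chosen with earlier results of these data known. Named with values were GCN4, the isozyme genes, and in each pathway and list the called genes with the highest and the lowest change; others were added after their values were seen. Promoter stretches came from the RefSeq R64 genome, and 133 of 134 list genes matched its annotation; no member overlaps another annotated gene. Alternatives are given at the end.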

Additional observations from a re-analysis of the deposited data

Results flagged for a closer look

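In the 20 members named by the rule, 60 sets of libraries of 1 window were examined for a library far from the others (Dixon's test at the 95% level), of which chance flags about 1 in 20, and 4 stood out. At 195 min GCN4 was at 663 RPM, below the other 6 middle libraries at 874 to 1041 RPM. In the same library LYS20 was at 62.2 RPM, against 133 to 210 RPM in the others, and TRP5 at 731 RPM, against 404 to 503 RPM. That library, with 192943 listed reads, is the second shallowest of the 20 used, and the part of depth in these values was not tested. At 15 min ASN2 was at 608 RPM, against 538 to 542 RPM in the other 4 early libraries.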

How the results depend on the processing

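Of the 23 members called between the early and late windows, 15 kept their call without each of the 20 libraries in turn, and 12 of these were also called in the same direction when centred. Leaving out 1 library at a time gave 8 to 13 members higher and 7 to 12 lower (7 without 15, 105 or 120 min). Against 0 min it gave 6 higher throughout and 4 to 7 lower late, 0 higher and 0 lower early, and 21 to 28 spline calls. With all 25 libraries 7 members were higher, and late minus 0 min had 2 lower and the spline 16 called. Centred on medians 5 were higher and 17 lower, and 3 and 12 against 0 min. Scaled to reads outside ribosomal protein genes 3 were higher and 19 lower, and 3 and 11 against 0 min. These 2 scalings moved the calls over all genes from 1640 higher and 330 lower to 730 and 677, and to 617 and 797. The late minus early change was above 0 in 29 of 47 members in RPM, in 15 centred and in 13 scaled to reads outside ribosomal protein genes. Among those that turned were LYS9 (-0.023 centred and -0.094 scaled) and GCN4 (-0.38 and -0.45). The log2 ratio differences ranged over libraries left out from 1.05 to 1.47 for BAT2 over BAT1, from -0.66 to -0.33 for LYS21 over LYS20, from -2.32 to -1.97 for LEU9 over LEU4, from -0.95 to -0.78 for ARO4 over ARO3 and from -0.30 to -0.06 for ASN2 over ASN1. Array weights, other window borders, no limit on level, only genes listed in every library, unlisted values set to 5 reads, and no trend or robust fit moved no count of members by over 1.5 times. The cause of these differences was not tested. No paired analysis was possible because each time is 1 library and the replicate numbers only name the order of times within a window. Listed reads were 340264 to 1981423 early and 169768 to 645272 late, and depth limits genes near the listing floor such as LEU9 and ARG3.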
